A study of Mus musculus with 6 samples.

Results

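The Sertoli cell and blood-testis barrier genes are 31 genes taken by name from a fixed list of Sertoli cell markers, targets of androgen and follicle-stimulating hormone (FSH), and junction proteins. All 31 were found among the 23361 genes of the expression table. The rule that picks them uses names, not measured values, but the list was chosen with earlier results of these data known. They were measured by sequencing polyadenylated RNA from the whole testis of 6 C57BL/6J mice aged about 120 days. The 3 inhibitor mice received 1NaPP1-HCl, a small-molecule kinase inhibitor, dissolved in vehicle. The 3 control mice received the vehicle alone, a mixture of saline, cremophor and ethanol. Both groups were injected daily for 9 days at 10 µl per g of body weight, were left for 5 days without injections and gave their testes on day 14. All 6 animals, controls included, carried 2 copies of Ret V805A, a changed form of the receptor for GDNF (glial cell line-derived neurotrophic factor) and its relatives, and mice without the substitution that received the inhibitor were not analysed here. The comparison asked what 9 days of inhibited GDNF signalling did to these genes.

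Sertoli cells are the somatic cells of the seminiferous tubule that surround and nourish the germ cells, and they are a testicular source of GDNF for spermatogonial stem cells. They respond to FSH through its receptor and to testosterone through the androgen receptor, and they secrete transport proteins, protease inhibitors and iron carriers into the tubule. Neighbouring Sertoli cells are joined near the tubule's base by tight, gap and adherens junctions and by actin bundles called ectoplasmic specialisations. Together these form the blood-testis barrier, which opens and reseals as germ cells move towards the lumen.

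The libraries held 23144295 to 43127890 fragments assigned to genes, so that 1 CPM (a count scaled to library size) corresponded to between 23.1 and 43.1 fragments. Counts were compared with edgeR's quasi-likelihood test after scaling by the trimmed mean of M values (TMM), and a gene was called at an adjusted p (Benjamini-Hochberg over all 16658 tested genes) under 0.05. Each library is labelled as a separate mouse, and every pair within a group differed by more than counting noise. Ret itself, whose product the inhibitor targets, averaged 0.579 ± 0.0858 CPM in inhibitor mice and 2.17 ± 0.294 CPM in control mice (SD, n = 3 each), a log2 fold change of −1.91 with an edgeR adjusted p of 0.020. Those values rest on 14, 15 and 17 fragments in inhibitor mice and 57, 105 and 54 in control mice. In whole-testis RNA, a lower share of Sertoli cells and less RNA per Sertoli cell cannot be told apart.

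None of the 30 tested members passed the adjusted threshold in edgeR, where 0.156% of all tested genes did. Krt18, the remaining member, had too few fragments to be tested. At an unadjusted p under 0.05, 3 members were higher in inhibitor mice (Cst9, Cst12 and Pebp1) against 9.43% of all tested genes, and 0 were lower against 8.48% of all tested genes. Both directions together gave 10.0% of the members and 17.9% of all tested genes. DESeq2 called 2 members, Cst9 and Cst12, both higher, where it called 4.96% of the genes to which it gave an adjusted p. Both limma-voom and limma on log2(FPKM + 1) called 0 members.

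The estimates were small. The members' log2 fold changes, inhibitor over control, ran from −0.18 for Fshr to 0.27 for Cst12. Their median was −0.05, where the median of all tested genes was −0.0041, with 12 members above 0 and 18 below. The members' median was 0.019 without inhibitor mouse 1, −0.0098 without inhibitor mouse 2, −0.091 without inhibitor mouse 3 and −0.030 without control mouse 2, so its sign and size rested on single libraries. The median absolute log2 fold change was 0.07 for the members and 0.11 for all tested genes. For 26 of the 30 members the 95% interval lay within ±0.5 on the log2 scale, which is a 1.41-fold difference in either direction. The other 4, whose intervals reached further, were Fshr, Abca1, Ptgds and Cldn5.

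**Figure D1:**
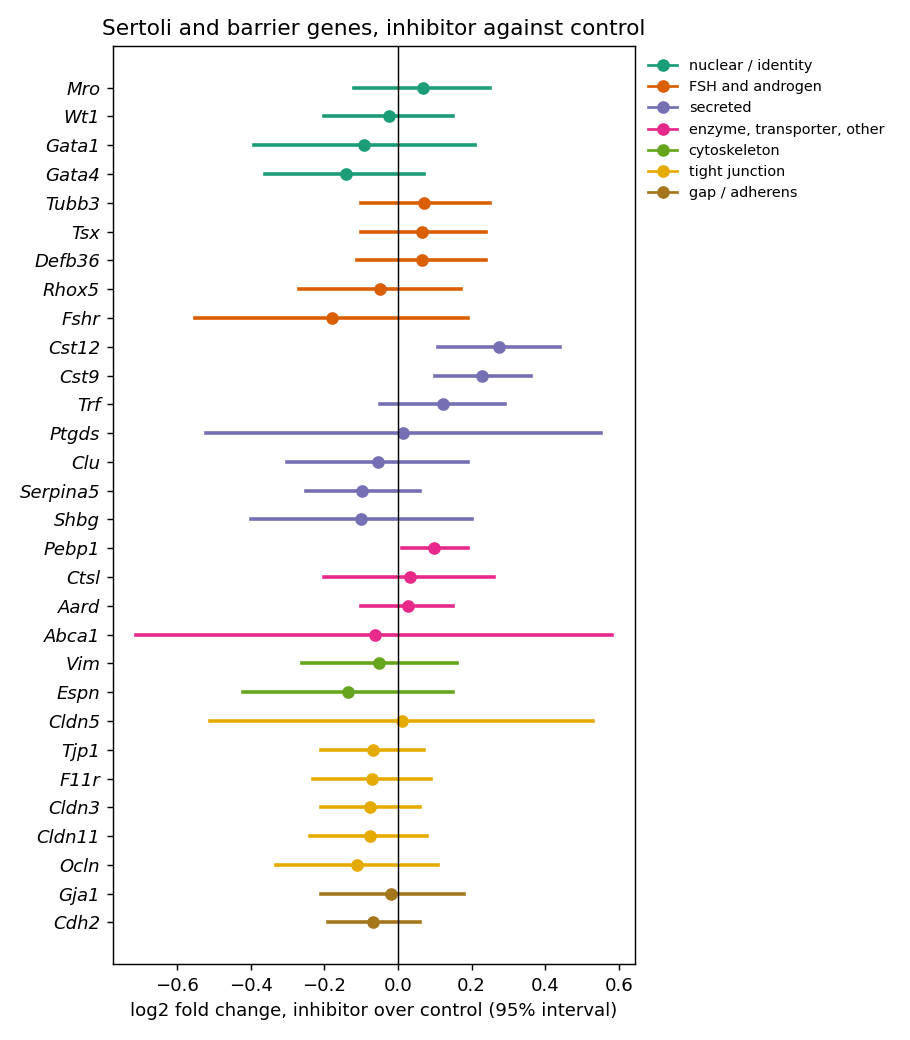
Log2 fold change of CPM, inhibitor over control, for the 30 tested members (points) with 95% intervals (lines) from edgeR, 3 mice a group, coloured by role and listed from transcription factors at the top to junction proteins at the bottom. The intervals of Cst12, Cst9 and Pebp1 lie above 0, and none lies wholly below 0.

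Per length of transcript, the list spanned more than 3 orders of magnitude. Pebp1, a phosphatidylethanolamine-binding protein also known as Raf kinase inhibitor protein, was the most abundant, with a mean of 1679 FPKM (fragments scaled to transcript length and library size) in inhibitor mice and 1567 FPKM in control mice. Clu, the secreted chaperone clusterin, followed at 584 FPKM in inhibitor mice and 606 FPKM in control mice. The cystatins Cst9 and Cst12, the prostaglandin synthase Ptgds and the protease Ctsl came next, each with group means between 214 and 312 FPKM. At the low end stood Ocln at 2.47 FPKM in inhibitor mice and 2.66 FPKM in control mice, and Fshr at 1.09 FPKM in inhibitor mice and 1.25 FPKM in control mice. Krt18, a keratin of immature Sertoli cells, had means of 0.261 FPKM in inhibitor mice and 0.226 FPKM in control mice, from 20, 2 and 5 fragments in the inhibitor mice and 9, 13 and 5 in the control mice. The defining Sertoli genes Wt1, Gata4, Clu, Rhox5 and Cldn11 were detected in every library, though other testicular cells may add to the RNA of any member.

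**Figure D2:**
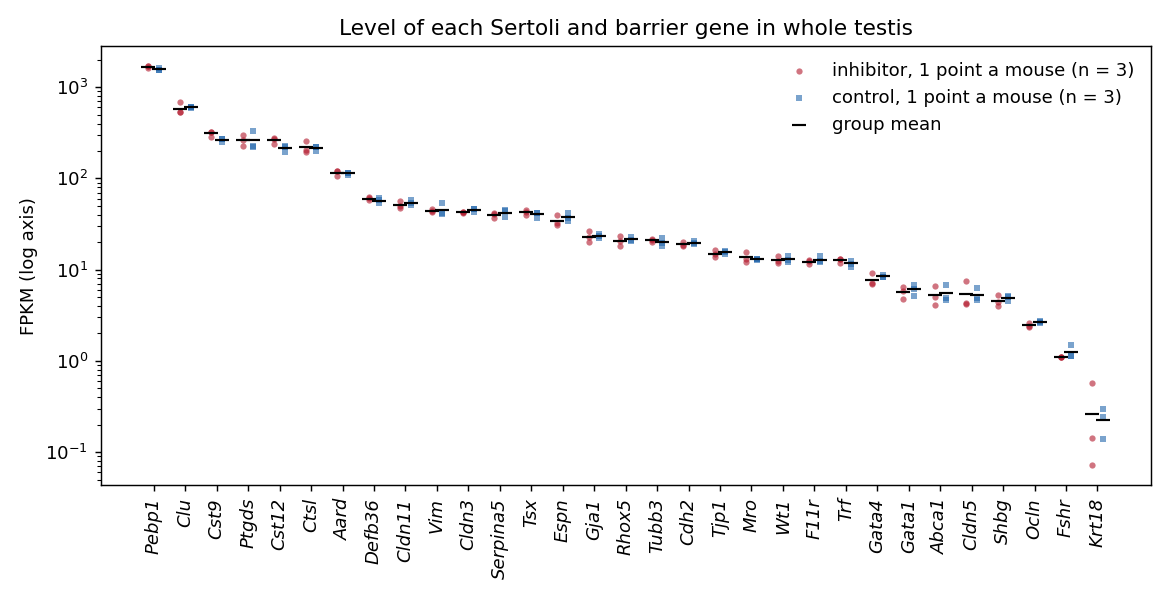
FPKM (log axis) of the 31 members, ordered by the mean of the control mice, with 1 point a mouse (inhibitor at left in red, control at right in blue) and a bar at each group mean. Levels run from Pebp1 at 1679 FPKM in inhibitor mice and 1567 FPKM in control mice down to Krt18 at 0.261 FPKM in inhibitor mice and 0.226 FPKM in control mice, and the groups lie close together at nearly every gene.

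Among the secreted proteins, the pair that differed most were Cst9 and Cst12, members of the cystatin family of cysteine protease inhibitors. Cst9 lies on chromosome 2 at 148835147-148838738 (mm10, plus strand), with a longest transcript of 687 nt, and Cst12 at 148789361-148793546 on the same strand, with one of 644 nt. The promoters of both are shown because they are the members with the largest estimates above 0, and those of Cldn3 and Cldn11 because they encode the barrier claudins described further on. Promoter windows from RefSeq (GRCm38.p6), 250 bases before to 50 bases after the start of the gene, were searched for 24 of the 31 members. The windows are chr2:148834897-148835196 for Cst9, chr2:148789115-148789414 for Cst12, chr5:134985964-134986263 for Cldn3 and chr3:31149670-31149969 for Cldn11, all on the plus strand. They are written 5′ to 3′, and capitals mark GATA, or TATC where GATA is on the other strand, the core motif read by GATA factors such as Gata4 and Gata1.
Cst9: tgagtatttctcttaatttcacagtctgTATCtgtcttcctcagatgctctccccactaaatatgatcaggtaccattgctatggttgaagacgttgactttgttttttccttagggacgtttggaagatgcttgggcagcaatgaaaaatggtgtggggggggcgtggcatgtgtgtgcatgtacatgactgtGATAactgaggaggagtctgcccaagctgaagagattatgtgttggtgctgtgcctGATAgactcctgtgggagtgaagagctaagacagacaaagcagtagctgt
Cst12: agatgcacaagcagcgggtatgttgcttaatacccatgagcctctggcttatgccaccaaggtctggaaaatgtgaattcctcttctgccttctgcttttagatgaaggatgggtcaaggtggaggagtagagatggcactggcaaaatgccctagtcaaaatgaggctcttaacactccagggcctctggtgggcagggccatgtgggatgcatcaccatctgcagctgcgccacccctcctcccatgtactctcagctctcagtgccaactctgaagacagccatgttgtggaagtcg
Cldn3: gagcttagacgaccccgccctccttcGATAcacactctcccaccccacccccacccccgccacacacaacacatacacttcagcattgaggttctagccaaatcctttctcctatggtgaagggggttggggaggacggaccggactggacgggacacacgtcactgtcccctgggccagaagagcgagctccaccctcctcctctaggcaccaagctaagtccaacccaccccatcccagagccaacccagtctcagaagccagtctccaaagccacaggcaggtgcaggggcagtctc
Cldn11: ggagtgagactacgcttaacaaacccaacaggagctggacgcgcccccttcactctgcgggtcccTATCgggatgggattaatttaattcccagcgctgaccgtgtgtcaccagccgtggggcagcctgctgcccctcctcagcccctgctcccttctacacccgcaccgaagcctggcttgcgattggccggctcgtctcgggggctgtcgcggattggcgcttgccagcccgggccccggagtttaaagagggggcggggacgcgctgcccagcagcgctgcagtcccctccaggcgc

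The window of Cst9 held 3 GATA motifs, those of Cldn3 and Cldn11 held 1 each, and that of Cst12 held 0. A GATA motif on either strand was present in 16 of the 24 member promoters (66.7%) and in 61.5% of the 27025 RefSeq promoters of the same length. The androgen receptor half-site AGAACA or its reverse TGTTCT was in 6 member promoters (25.0%) and in 21.3% of all promoters, and in none of these 4. The cyclic AMP response half-site TGACG or CGTCA, read by factors downstream of FSH, was in 2 member promoters (8.33%) and in 23.0% of all promoters; Cldn3 carried 1. TATAAA or TTTATA was in 3 member promoters (12.5%) and in 15.7% of all, again in none of these 4. Aligned end to end, the Cst9 and Cst12 windows were identical at 48.2% of alignment columns, gaps included. That lay within the 43.4 to 49.5% of the other 5 pairs among these 4 windows, which include the 2 claudins, Cldn3 and Cldn11, at 44.9%. Whether the cystatin windows share a shorter stretch was not tested. No motif searched contains another, and a match describes the letters of a window, not binding.

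Cst9 had 161, 160.1 and 142 CPM in inhibitor mice 1 to 3 and 135, 125 and 135 CPM in control mice 1 to 3. Every inhibitor mouse lay above every control mouse, with inhibitor mouse 3 nearest to the controls. The log2 fold change was 0.23 ± 0.060 (SE), with an unadjusted p of 0.0025 and an adjusted p of 0.104 in edgeR's test, and DESeq2's adjusted p was 0.031. Cst12 had 96.2, 96.8 and 82.6 CPM in inhibitor mice and 78.3, 69.5 and 80.2 CPM in control mice, again without overlap and with inhibitor mouse 3 lowest of its group. Its log2 fold change was 0.27 ± 0.075 (SE), with an unadjusted p of 0.0032 and an adjusted p of 0.110 in edgeR's test, and DESeq2's adjusted p was 0.028. Counts were ample for both, at 1954 to 5486 fragments a library. Among all tested genes, 22.9% had groups that did not overlap, in either direction, and among the members 3 did: these 2 and Fshr.

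Both estimates shrank when a joint trend on transcript length and GC content was removed, and the share of each was not tested. Each library's log2 CPM was taken relative to the mean of the 6 libraries. Its trend on transcript length and GC content across genes was then removed, which also removes any group difference that follows length or GC content. With that trend removed, the log2 fold change was 0.0035 for Cst9 (95% interval −0.10 to 0.11, edgeR adjusted p 0.984) and 0.047 for Cst12 (−0.06 to 0.15, adjusted p 0.728). The same shift reached the other short members. The 5 shortest, Defb36, Cst12, Cst9, Rhox5 and Tsx at 468 to 812 nt, each moved by −0.23 to −0.12, and their median log2 fold change was 0.066 as measured and −0.06 with the trend removed. The other 25 tested members, at 1240 to 10262 nt, had a median of −0.063 as measured and −0.018 with the trend removed. Length here is that of the longest annotated transcript, 6168 nt for Ctsl for example, which need not be the form expressed. The split and the trend depend on that choice, and other lengths were not tested. With the trend removed 0 members passed the adjusted threshold in edgeR, where 9 genes of the whole table were higher and 9 lower. At an unadjusted p under 0.05 the count was also 0 members. The share of all tested genes at that unadjusted threshold with the trend removed is not given here, so such counts cannot be set against it. The members' median with the trend removed was −0.031, against 0.0047 for all tested genes.

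**Figure D3:**
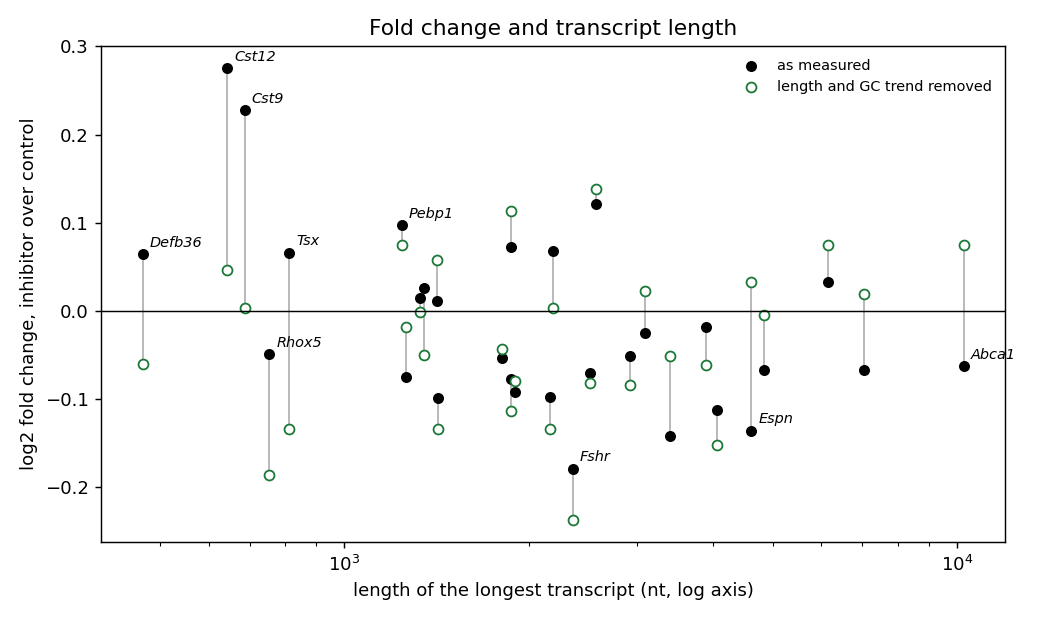
Log2 fold change of CPM, inhibitor over control, of the 30 tested members against the length of the longest transcript (nt, log axis), as measured (filled) and with the length and GC trend of all genes removed (open), joined by a line for each gene. Cst12 and Cst9, at 0.27 and 0.23 as measured, lie near 0 with the trend removed, and Defb36, Rhox5 and Tsx, the other transcripts of 468 to 812 nt, move down with them.

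The other secreted and transport proteins did not pass. Clu had 869, 870.3 and 1127 CPM in inhibitor mice and 997, 1009 and 970.4 CPM in control mice, so that inhibitor mice 1 and 2 lay below all controls and inhibitor mouse 3 above them. Its log2 fold change was −0.05 with an edgeR adjusted p of 0.830. Trf (transferrin, an iron carrier) averaged 27.6 ± 1.61 CPM in inhibitor mice and 25.3 ± 1.88 CPM in control mice (SD, n = 3 each). Shbg, the gene of the androgen-binding protein, averaged 5.62 ± 0.804 CPM in inhibitor mice and 6.02 ± 0.429 CPM in control mice. Serpina5, the serine protease inhibitor known as protein C inhibitor, averaged 78.9 ± 4.42 CPM in inhibitor mice and 84.6 ± 7.60 CPM in control mice. Ptgds, the lipocalin-type prostaglandin D synthase, was among the more variable members, at 184, 139 and 164 CPM in inhibitor mice and 205, 141 and 137 CPM in control mice. Its 95% interval, −0.52 to 0.55 on the log2 scale, was among the widest. The 7 tested genes of this class had adjusted p values of 0.104 to 0.980 and a median log2 fold change of 0.015.

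The transcription factors and other genes of Sertoli cell identity gave similar levels in both groups. Wt1, a zinc finger factor needed to keep Sertoli cells in their fate, averaged 37.6 ± 3.42 CPM in inhibitor mice and 38.3 ± 2.73 CPM in control mice (SD, n = 3 each; log2 fold change −0.02, 95% interval −0.20 to 0.15). Gata4 had 23.0, 22.4 and 29.5 CPM in inhibitor mice and 27.1, 28.6 and 27.0 CPM in control mice. As with Clu, inhibitor mice 1 and 2 lay below every control and inhibitor mouse 3 above. Gata1, a GATA factor that Sertoli cells make in part of the spermatogenic cycle, averaged 9.85 ± 1.52 CPM in inhibitor mice and 10.5 ± 1.53 CPM in control mice. Mro (maestro), first described from the developing male gonad, averaged 27.6 ± 3.33 CPM in inhibitor mice and 26.4 ± 0.428 CPM in control mice. The 4 genes had edgeR adjusted p values of 0.479 to 0.908.

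Of the genes tied to FSH and androgen, Fshr, the FSH receptor, was the member with the lowest fold change. It had 2.43, 2.41 and 2.38 CPM in inhibitor mice and 3.24, 2.51 and 2.48 CPM in control mice, so the groups did not overlap, but the gap between inhibitor mouse 1 and control mouse 3 was small and control mouse 1 stood above the rest. Those values rest on 70, 55 and 68 fragments in inhibitor mice and 81, 110 and 73 in control mice, and the log2 fold change of −0.18 had a 95% interval of −0.55 to 0.19 and an edgeR adjusted p of 0.616. Rhox5, a homeobox gene that depends on androgen in Sertoli cells, averaged 12.7 ± 1.61 CPM in inhibitor mice and 13.1 ± 0.642 CPM in control mice (SD, n = 3 each), with overlapping groups. Tsx, an X-linked gene made in Sertoli cells, averaged 26.5 ± 1.51 CPM in inhibitor mice and 25.3 ± 1.95 CPM in control mice. The beta-tubulin gene Tubb3 averaged 32.5 ± 1.19 CPM in inhibitor mice and 30.9 ± 3.36 CPM in control mice. Defb36, which encodes a beta-defensin, averaged 16.3 ± 0.604 CPM in inhibitor mice and 15.5 ± 0.952 CPM in control mice. The adjusted p values of these 5 ran from 0.616 to 0.843 in edgeR's test.

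Among the enzymes, transporters and other proteins, Pebp1 had 1714, 1710.1 and 1604 CPM in inhibitor mice and 1536, 1558 and 1607 CPM in control mice. Inhibitor mouse 3 and control mouse 3 were almost level, and the other inhibitor mice were above all controls. The log2 fold change was 0.10 ± 0.042 (SE), with an unadjusted p of 0.039 and an adjusted p of 0.250 in edgeR's test. Ctsl, the protease cathepsin L, had 353, 372 and 459.6 CPM in inhibitor mice and 394, 363 and 402 CPM in control mice, with inhibitor mouse 3 the highest of all 6. Abca1, the cholesterol exporter, varied more between mice than most members, at 67.7, 41.8 and 51.3 CPM in inhibitor mice and 49.7, 48.3 and 70.4 CPM in control mice. Its coefficient of variation was 24.5% in inhibitor mice and 22.0% in control mice, where the members' medians were 8.71% in inhibitor mice and 7.12% in control mice. Aard, a small alanine- and arginine-rich protein, averaged 135 ± 9.65 CPM in inhibitor mice and 133 ± 3.66 CPM in control mice (SD, n = 3 each).

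Of the cytoskeletal members, Espn, which encodes the actin-bundling protein espin of the ectoplasmic specialisation, had 79.2, 71.7 and 98.0 CPM in inhibitor mice and 90.0, 101 and 83.0 CPM in control mice. Inhibitor mice 1 and 2 lay below all controls and inhibitor mouse 3 among them. Vim, the intermediate filament protein vimentin, averaged 73.4 ± 3.24 CPM in inhibitor mice and 75.9 ± 11.3 CPM in control mice (SD, n = 3 each), with control mouse 2 the highest at 88.9 CPM. The edgeR adjusted p was 0.605 for Espn and 0.821 for Vim.

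No tight junction gene passed the test, and 5 of 6 had estimates below 0, with a median log2 fold change of −0.07 and a range of −0.11 to 0.01. Cldn11, the claudin without which the barrier does not form in mice, had 81.6, 85.4 and 96.5 CPM in inhibitor mice and 92.0, 99.5 and 86.4 CPM in control mice. Cldn3, a claudin of newly forming junctions whose expression depends on androgen, had 45.5, 46.7 and 46.7 CPM in inhibitor mice and 49.6, 50.6 and 46.0 CPM in control mice. In both genes the groups overlapped, through inhibitor mouse 3 in the first and control mouse 3 in the second. Cldn3 overlaps Wbscr25 on the opposite strand, which had 251, 250.0 and 278 CPM in inhibitor mice and 260.0, 272 and 264 CPM in control mice, and whether the counting separated the strands is not given in the sources used here. Cldn5, a claudin that endothelial cells also make, had 5.39, 5.25 and 9.24 CPM in inhibitor mice and 5.81, 7.84 and 6.02 CPM in control mice, so that inhibitor mouse 3 alone stood far above the other inhibitor mice. Ocln (occludin) averaged 7.51 ± 0.357 CPM in inhibitor mice and 8.12 ± 0.234 CPM in control mice (SD, n = 3 each). Tjp1, the scaffold ZO-1, averaged 102 ± 8.84 CPM in inhibitor mice and 107 ± 3.74 CPM in control mice. F11r, the adhesion molecule JAM-A, averaged 28.4 ± 1.41 CPM in inhibitor mice and 29.8 ± 2.28 CPM in control mice. On the log2 scale the lower ends of the 95% intervals were −0.51 for Cldn5, −0.33 for Ocln, −0.24 for Cldn11, −0.23 for F11r and −0.21 for both Cldn3 and Tjp1, and with the length and GC trend removed those of Ocln and Cldn11 were −0.37 and −0.28. The adjusted p values of the 6 ran from 0.544 to 0.988.

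At the other junctions, Gja1 (connexin 43, the main Sertoli gap junction protein) averaged 68.1 ± 9.18 CPM in inhibitor mice and 68.9 ± 3.09 CPM in control mice (SD, n = 3 each; edgeR adjusted p 0.942). Cdh2, the adherens junction protein N-cadherin, averaged 85.6 ± 4.12 CPM in inhibitor mice and 89.7 ± 3.99 CPM in control mice (SD, n = 3 each; edgeR adjusted p 0.580).

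Inhibitor mouse 3 set the spread of many members. It was the highest of the 6 libraries in 10 of the 30 tested members (33.3%) and in 17.5% of all tested genes. Those 10 were Wt1, Gata4, Clu, Shbg, Ctsl, Tsx, Mro, Cldn5, Tjp1 and Gja1. Inhibitor mouse 1 was the lowest library in 13 members (43.3%) and in 19.6% of all tested genes. Other Sertoli genes summed to 893, 899 and 1135 CPM in inhibitor mice 1 to 3 and 977, 1105 and 959 CPM in control mice 1 to 3, again with inhibitor mouse 3 highest. The part that the makeup or handling of these libraries has in the members' values was not tested.

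**Figure D4:**
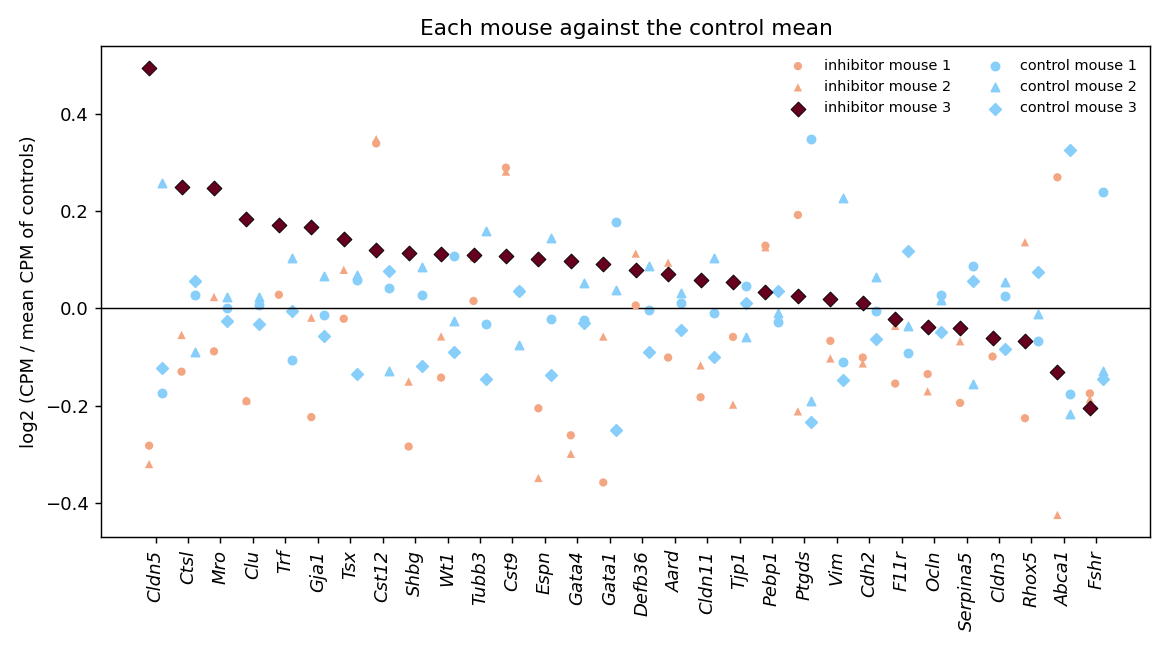
Log2 ratio of each mouse's CPM to the mean CPM of the 3 control mice for the 30 tested members, ordered by inhibitor mouse 3 (dark diamonds), with inhibitor mice at the left and control mice at the right of each position. Inhibitor mouse 3 lies apart from inhibitor mice 1 and 2 at Cldn5, Clu, Ctsl and Gata4, and below them at Cst12, Cst9 and Pebp1.

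With inhibitor mouse 3 left out, 6 of 31 tested members passed the adjusted threshold, when 14.3% of all tested genes did. The log2 fold changes without that mouse were 0.29 for Cst9 (adjusted p 0.0016), 0.35 for Cst12 (0.0022) and 0.13 for Pebp1 (0.025). They were −0.19 for Clu (0.0032), −0.28 for Gata4 (0.015) and −0.28 for Espn (0.046). When the length and GC trend was also removed, 2 of 31 members passed, when 6.33% of all tested genes did. These were Clu, with a log2 fold change of −0.18 and an adjusted p of 0.0043, and Cldn11, with −0.21 and 0.040. Cst9, Cst12, Pebp1, Gata4 and Espn no longer passed there, and Cldn11 passed only with both steps together. With each of the other 5 mice left out in turn, 0 members passed.

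The rest of the pathway and barrier genes, from lists chosen with earlier results of these data known, gave no call in edgeR's test on all 6 mice. DESeq2 called 3 of them, where it called 4.96% of all genes with an adjusted p. These were Lgals1 and Dmrt1, of 22 other Sertoli genes with an adjusted p, and Tln1, of 21 adherens junction and ectoplasmic specialisation genes with one. It called 0 of 11 androgen and FSH signalling genes and 0 of 9 other tight junction genes. Of 28 other tested Sertoli genes, 0 passed the adjusted threshold in edgeR, and the median log2 fold change was −0.05. At an unadjusted p under 0.05, 2 were higher and 3 lower, against 9.43% and 8.48% of all tested genes. Without inhibitor mouse 3, edgeR called 2 of them higher and 7 lower, when 14.3% of all tested genes passed in either direction. Here and in the lists below, such calls belong to that setting. With inhibitor mouse 1 or 2 or control mouse 1 or 2 left out, 0 genes of the whole table passed. Without control mouse 3, 3 genes of the whole table were higher and 7 lower. Lgals1, the galactose-binding lectin galectin-1, averaged 32.8 ± 1.06 CPM in inhibitor mice and 27.0 ± 1.56 CPM in control mice (adjusted p 0.095 in edgeR and 0.032 in DESeq2). Dmrt1, a factor of male sex maintenance that spermatogonia also make, averaged 20.7 ± 1.53 CPM in inhibitor mice and 25.6 ± 1.47 CPM in control mice (adjusted p 0.103 in edgeR and 0.044 in DESeq2). The third gene named from that list, Amh, the anti-Müllerian hormone, had an adjusted p of 0.117. Of 14 androgen and FSH signalling genes, 0 passed in edgeR (2, both lower, without inhibitor mouse 3, against the same 14.3%). At an unadjusted p under 0.05, 4 were lower, against 8.48% of all tested genes. Among these were the androgen-responsive chaperone Fkbp5 (46.3 ± 2.56 CPM in inhibitor mice, 54.2 ± 0.926 CPM in control mice, edgeR adjusted p 0.104), the cyclic AMP phosphodiesterase Pde4d (adjusted p 0.179) and the dopamine receptor Drd4 (adjusted p 0.190).

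Other junction genes included one with a large estimate. Marveld2 encodes tricellulin, which seals the points where 3 cells meet, and averaged 0.958 ± 0.148 CPM in inhibitor mice and 2.13 ± 0.400 CPM in control mice (SD, n = 3 each). Its groups did not overlap, and its log2 fold change was −1.15 ± 0.227 (SE; edgeR adjusted p 0.067). Removing the length and GC trend left it at −1.14 (adjusted p 0.085). Without inhibitor mouse 3, where 14.3% of all tested genes passed, its edgeR adjusted p was 0.0094. These values rest on 23, 25 and 28 fragments in inhibitor mice and 52, 77 and 75 in control mice. Of 20 other tested tight junction genes, 0 passed in edgeR (3, all lower, without inhibitor mouse 3, when 14.3% of all tested genes passed). At an unadjusted p under 0.05, 4 were lower, against 8.48% of all tested genes. Among these were the polarity gene Pard6b (edgeR adjusted p 0.115) and the scaffold Mpdz (0.177). Of 24 tested adherens junction and ectoplasmic specialisation genes, 0 passed in edgeR and 6 were lower at an unadjusted p under 0.05, against 8.48% of all tested genes, among them talin Tln1 (edgeR adjusted p 0.112, DESeq2 0.047), the actin bundler Fscn1 (edgeR 0.172) and Palld (edgeR 0.184). Their median log2 fold change was −0.09. With the length and GC trend removed it was −0.04, and Tln1 was at −0.07 (edgeR adjusted p 0.613). In that setting 3 genes of the list were higher and 0 lower at an unadjusted p under 0.05 (share of all tested genes not given). Without inhibitor mouse 3, 1 of these genes was called higher and 5 lower, when 14.3% of all tested genes passed. Of 9 tested gap junction genes, 0 passed at either threshold in edgeR on all 6 mice, 0 of the 2 with an adjusted p passed in DESeq2, 1 passed (lower) without inhibitor mouse 3, and the smallest p values belonged to Panx1, Gjc1 and Gja5.

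Markers of other cells were read in the same libraries. Of 14 tested markers of undifferentiated spermatogonia, 4 fell (Ret, Sox3, Zbtb16 and Lin28a, edgeR adjusted p values of 0.020 to 0.048), where edgeR called 0.156% of all tested genes. In inhibitor mice these 4 rested on 14 (Ret) to 99 (Zbtb16) fragments a library. DESeq2 gave an adjusted p to 3 of the 14, none of them these 4, and called 1, Foxo1, lower, where it called 4.96% of all genes with one. The list summed to 84.3 to 101 CPM in inhibitor mice and 114 to 116 CPM in control mice. Spermatocyte and spermatid markers summed to 23228 to 25123 CPM in inhibitor mice and 21674 to 22529 CPM in control mice, with 8 of 15 higher at an unadjusted p under 0.05, against 9.43% of all tested genes, and 0 after adjustment in edgeR (Spo11, Akap4 and Prm2 leading). DESeq2 called 4, these 3 and Pgk2. With the length and GC trend removed, 3 of the 15 were higher at an unadjusted p under 0.05 (share of all tested genes not given). The list's median log2 fold change was then 0.048, against 0.14 as measured. Inhibitor mouse 3 had the lowest of these sums in its group, and it was also the inhibitor mouse lowest in Cst9, Cst12 and Pebp1. In the other 5 lists edgeR called 0 genes on all 6 mice. DESeq2 called 1, Aif1, among 6 macrophage markers with an adjusted p, where it called 4.96% of all such genes. With any other mouse left out, edgeR called at most 3 genes of the whole table higher and 7 lower. Without inhibitor mouse 3 it called 14.3% of all tested genes. Its calls held 9 of 15 spermatocyte and spermatid markers higher and 1 lower, and 3 of 10 macrophage markers higher. They also held 1 gene of the epididymal list, Cst8, higher, and 1 marker each of Leydig, peritubular and endothelial cells lower. Leydig cell markers summed to 967 to 1169 CPM in inhibitor mice and 1027 to 1292 CPM in control mice (2 of 9 lower at an unadjusted p under 0.05, against 8.48% of all tested genes, with Nr5a1, Insl3 and Star leading). Peritubular myoid markers summed to 144 to 159.5 CPM in inhibitor mice and 152 to 213 CPM in control mice, and all 8 had estimates below 0, 1 at an unadjusted p under 0.05 (Mylk, Cnn1 and Myh11 leading). Markers of endothelial cells, which also make Cldn5, summed to 45.8 to 56.1 CPM in inhibitor mice, highest in mouse 3, and to 52.9 to 57.1 CPM in control mice (1 of 10 lower at that threshold, with Eng, Vwf and Kdr leading). Macrophage markers summed to 452 to 485 CPM in inhibitor mice and 404 to 422 CPM in control mice (3 of 10 higher at that threshold, Aif1, Lyz2 and Cd163, against 9.43% of all tested genes). Of the 10, 7 had estimates below 0, and without Aif1, the most abundant, the sums overlapped at 93.9 to 98.2 CPM in inhibitor mice and 84.1 to 103 CPM in control mice. Of 18 epididymis and efferent duct markers, 5 were tested (Cst8, Pax2 and Ros1 leading) and 3 had no fragment in any library. Without Cst8, a cystatin near Cst9, that list summed to 5.56 to 12.1 CPM in inhibitor mice and 9.52 to 11.1 CPM in control mice. The part of these cells in the members' values was not tested.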

How the data were processed

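Per the labels' protocols, libraries came from 500 ng of total RNA, polyadenylated RNA was selected, a directional kit was used and single-end reads of 81 nt were sequenced. Tools named in the submitters' processing notes are TopHat2 2.0.13, Cuffdiff 2.2.1 and cutadapt 1.8, with the build mm10. The sources used here do not say what each tool did, which annotation was used or whether counting used strand. The authors deposited an expected count of fragments per gene and library. Of these 140166 values, 98.8% lay within 1e-06 of a whole number, and all were rounded. The deposited FPKM values, scaled to transcript length and library size by the authors, were used for levels and in limma alternatives. In the table, 2 other per-sample columns were not used.

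Counts were fitted with edgeR 4.0.16 in R 4.3.3 (filterByExpr, TMM, robust quasi-likelihood F-test, two-sided, threshold 0.05), with DESeq2 1.42.0 and limma 3.58.1 as alternatives, over all 6 mice; p values measure the spread between these mice. CPM values use TMM-scaled library sizes, and the biological coefficient of variation was 8.0%. Lengths, GC content and positions came from GENCODE M21 (GRCm38, the assembly of mm10), found for 99.0% of tested genes; the trend was a loess surface (span 0.5) per library, used as an offset. Motifs were searched in RefSeq promoters with Python 3.11.15 and aligned with Biopython 1.88. Every member is named, with each mouse's value for those past a threshold or without overlap and for others the text turns on; of each other list, up to 3 genes with the smallest p are named, plus any called. The members and lists were chosen with earlier results of these data known. Alternatives were other scalings, filters, tools, pseudocounts, a replicate block and each mouse left out.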

Additional observations from a re-analysis of the deposited data

How the results depend on the processing

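As main values, 10 genes of the table were higher and 16 lower, with 0 members called and 3 members at an unadjusted p under 0.05. Higher and lower genes numbered 368 and 170 with DESeq2 (2 members called), 58 and 57 without a filter, 3 and 7 with at least 50 counts in 3 libraries, 0 and 0 with limma on log2(FPKM + 1), and 0 and 1 on log2(FPKM + 0.1). Higher genes numbered 4 with library totals alone and 3 with limma-voom. Removal of the length and GC trend left 9 genes lower, and 0 members reached an unadjusted p under 0.05. With that trend removed and inhibitor mouse 3 left out, a setting chosen after seeing the data, 703 genes were higher and 365 lower, with 2 members called and 9 at an unadjusted p under 0.05. Leaving out each mouse in turn gave 0 to 1470 higher genes, 0 to 935 lower, 0 to 6 members called, and 2 to 8 members at an unadjusted p under 0.05; the upper end was without inhibitor mouse 3 throughout. The members' median log2 fold change, −0.05, ran from −0.091 to 0.019 over the same settings. The causes were not tested.

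With the replicate number as a block, 0 genes were higher and 5 lower, with 0 members called, and with the trend removed as well 0 and 2, with 0 members at an unadjusted p under 0.05. The labels do not state whether same-numbered mice were paired. Deviations of same-numbered mice correlated at 0.096, −0.066 and 0.064, and 1 of 3 libraries in each group correlated best with its own number. With 3 mice a group these values cannot settle the question.

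Of 540 estimates for single members under 18 settings, 476 kept direction and side of the threshold, 10 gained a call and 54 changed sign, in 18 members whose measured log2 fold change was at most 0.23 in size. Sign changes were as follows. With library totals alone they were −0.0052 for Aard, −0.021 for Cldn5 and −0.015 for Ptgds. Cldn5 was −0.013 with the block, −0.043 with limma-voom, −0.013 on log2(FPKM + 1) and −0.020 on log2(FPKM + 0.1). With the trend removed they were −0.050 for Aard, 0.075 for Abca1, −0.060 for Defb36, 0.033 for Espn, −0.0011 for Ptgds, 0.019 for Tjp1, −0.13 for Tsx and 0.023 for Wt1. With the trend and a block they were −0.053 for Aard, 0.065 for Abca1, −0.058 for Defb36, 0.027 for Espn, −0.0044 for Mro, 0.016 for Tjp1, −0.14 for Tsx and 0.021 for Wt1. With the trend removed and inhibitor mouse 3 left out they were −0.11 for Aard, 0.12 for Abca1, −0.28 for Cldn5, −0.044 for Cst9, −0.040 for Ctsl, −0.15 for Defb36, −0.13 for Mro, −0.026 for Ptgds and −0.28 for Tsx. Leaving out each mouse in turn gave −0.0098 to 0.084 for Aard, −0.27 to 0.14 for Abca1, −0.31 to 0.17 for Cldn5, −0.19 to 0.010 for Clu, −0.091 to 0.11 for Ctsl, −0.11 to 0.00056 for F11r, −0.20 to 0.028 for Gata1, −0.12 to 0.077 for Gja1, −0.034 to 0.14 for Mro, −0.084 to 0.23 for Ptgds, −0.14 to 0.036 for Rhox5, −0.11 to 0.084 for Vim and −0.099 to 0.033 for Wt1. Krt18 had too few fragments for a test over all 6 mice.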

Other observations

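Cst9 and Cst12 lie in a run of 9 genes of the table from Cstl1 to Cst3, over 125 kb of chromosome 2, most of them cystatins. This run was looked at after the values of Cst9 and Cst12 were seen, so it is a description without a test. Of the 8 tested genes, 6 had estimates above 0. Cstl1 had 85.2, 85.3 and 56.7 CPM in inhibitor mice 1 to 3 and 58.9, 53.3 and 54.3 CPM in control mice 1 to 3. Cst8 had 297, 314 and 206 CPM in inhibitor mice and 213, 189 and 212 CPM in control mice. Cst13 had 110.0, 128 and 78.5 CPM in inhibitor mice and 85.3, 74.2 and 82.3 CPM in control mice. In all 3, inhibitor mice 1 and 2 lay above every control and inhibitor mouse 3 lay within the range of the controls. Cst3, which encodes the widely expressed cystatin C at the end of the run, had 114, 130.5 and 121 CPM in inhibitor mice and 101, 136 and 132 CPM in control mice, with overlapping groups. With the length and GC trend removed, the log2 fold changes were 0.27 for Cstl1, 0.21 for Cst8 and 0.16 for Cst13, where those of Cst9 and Cst12 were 0.0035 and 0.047. Over all 6 mice Cstl1, Cst8 and Cst13 were not called by edgeR, with that trend or without it. Their unadjusted p values in edgeR's test on all 6 mice, with the trend kept, were 0.035, 0.064 and 0.093. Without inhibitor mouse 3 and with the trend kept, all 3 were called, at log2 fold changes of 0.62, 0.58 and 0.57. The edgeR adjusted p values there were 1.9e-05, 4.9e-05 and 0.0013. Those calls come from leaving out the inhibitor mouse that lay within the control range, so they are no test of the run.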
